A study of Mus musculus with 10 samples.

Results

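The Dnmt triple knockout, a mouse embryonic stem cell line without a working copy of the DNA methyltransferases Dnmt1, Dnmt3a and Dnmt3b, was compared with the wild-type line J1 over 23811 genes. The comparison took in the 1 array of the knockout, called TKO here, and the 2 arrays of J1, 3 of the 10 arrays of the series, and the TKO array has no replicate. TKO is line 19-1 with the genotype Dnmt1-/-Dnmt3a-/-Dnmt3b-/-, and J1 carries no modification. The other 4 groups served to estimate the spread between arrays and as further references: Dnmt1_KO (Dnmt1-/-, line 36, 1 array), Dnmt3b_KO (Dnmt3b-/-, line 8bb, 2 arrays), PRDM14 (line JP-23, labelled as stably expressing Prdm14, 2 arrays) and PRDM14_DNMT3B (line JP-23+3b-3, labelled as stably expressing Prdm14 and Dnmt3b1, 2 arrays). The 4 arrays of the last 2 groups are called the PRDM14-labelled arrays. All cells grew without feeder cells in Glasgow medium with 10% fetal calf serum and leukaemia inhibitory factor (LIF). Each group is 1 cell line and the labels name no parent line for 19-1, so genotype and line history cannot be told apart.

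DNA methylation in mammals sits mainly on the cytosine of CpG dinucleotides. Dnmt3a and Dnmt3b place it on unmethylated DNA, and Dnmt1 copies it onto the new strand after replication, so a cell without all of them keeps almost none. Mouse embryonic stem cells survive in that state, unlike most differentiated cells. Promoter methylation is best known for holding germline genes, 1 parental copy of imprinted genes and retroelements silent.

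Total RNA was amplified, labelled with Cy3 and hybridised to one-colour Agilent arrays of 60-base probes. A level is the log2 signal of a probe minus the 75th percentile of its array, and a difference is given in log2 units with its standard error (SE), from 1 TKO and 2 J1 arrays. A gene was called, and is said to have risen or fallen, at an adjusted p under 0.05 in 1 limma fit over all 10 arrays. That fit assumes that the lone TKO array varies like the groups with 2 arrays. Whether replicates are separate cultures is not in the labels, and the spread behind each p-value may therefore be technical and holds for these arrays alone. Replicate arrays correlated at r of 0.9951 to 0.9977 over the 18254 genes above background on all arrays, and their median absolute difference ran from 0.113 to 0.159 log2 units. J1 replicate 1 and TKO lay on the same slide, in different scan passes, and J1 replicate 2 lay on another slide. On each array 50.0 to 56.0% of spots were well above background and none was saturated, and the number of arrays limits the precision. With normexp background correction in place of the scanner's, 49 of the 133 differences chosen by the naming rule shrank by over 1.5 times. These are bulk cultures, so more cells of a type and more RNA per cell cannot be told apart.

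The 3 deleted genes were low in TKO. Dnmt3b (mm9 chromosome 2, 153513403 to 153513462), a de novo enzyme, stood at 7.60 and 7.57 on the J1 arrays, at 7.65 in Dnmt1_KO, at no more than 5.05 in PRDM14, at 4.09 and 4.17 in PRDM14_DNMT3B, at 1.99 in TKO and at 1.62 and 1.69 in Dnmt3b_KO. It fell by 5.59 ± 0.10 in TKO (SE; limma adjusted p = 7.84e-05), and its 3 probes fell by 5.54 to 5.69. Dnmt1 (mm9 chromosome 9, 20711973 to 20712341) stood at 1.62 and 1.30 in J1, 1.66 and 1.43 in Dnmt3b_KO, 1.32 to 1.82 on the PRDM14-labelled arrays, -3.15 in TKO and -2.68 in Dnmt1_KO, and fell by 4.61 ± 0.19 (limma adjusted p = 0.000245). Both enzymes stayed above background in TKO. Dnmt3a (mm9 chromosome 12, 3914320 to 3914379) was at -0.18 and -0.34 in J1, 0.55 in Dnmt1_KO, 0.24 and 0.26 in Dnmt3b_KO and -0.49 to 0.15 on the PRDM14-labelled arrays, was not well above background in TKO (-6.38) and was at least 17.6-fold lower there (limma adjusted p = 7.84e-05). A bound of this kind sets the dim side at the lowest signal that counts as above background. Whether the probes lie in the deleted stretches was not analysed here. The gene values of the PRDM14-labelled arrays went against their labels. Prdm14, read by 1 probe, stood at -0.08 and 0.09 in J1 and at -4.32 and -4.02 in the libraries labelled PRDM14 and -6.35 and -6.42 in those labelled PRDM14_DNMT3B, and Dnmt3b was lower in PRDM14_DNMT3B than in J1 or PRDM14. Whether these probes lie in the introduced sequences was not analysed here, and these arrays serve below as references under their labels. Among the cofactors of methylation, Dnmt3l, the catalytically inactive partner of the de novo enzymes, did not pass (difference 0.25). Hells and Zfp57, which help to keep methylation at repeats and imprinted regions, did not pass either (-0.14 and -0.22). Uhrf1, which guides Dnmt1 to newly copied DNA, and its relative Uhrf2 were higher by 0.37 and 0.45 (limma adjusted p = 0.0368 and 0.0182). Both calls ended without either J1 array, that of Uhrf1 also without any 1 other replicate.

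Against J1, 6793 genes were called, 28.5% of those tested. Without the 4 PRDM14-labelled arrays, which leaves fewer arrays to estimate the spread, 3742 were called. Of the 6793 called, 3303 were higher in TKO (13.9%) and 3490 lower (14.7%). Large differences were mostly rises: 1993 genes rose by over 2-fold (8.37%) and 1058 fell by over 2-fold (4.44%), among the called genes. The median difference of all tested genes was -0.07. A gene could enter the test through any group in which it was above background, so a gene that is dim in J1 entered because another line was brighter. Of 2354 genes above background on neither J1 array, 817 were called higher and 34 lower. Of 614 genes that entered through the TKO array alone, 256 were called higher and 0 lower, the direction that the filter favours. Among the 19634 genes above background on both J1 arrays, 2307 were called higher (11.8%) and 3394 lower (17.3%), with a median of -0.12. Counts of gene lists are therefore also given for members above background on both J1 arrays wherever these are fewer than the members tested, and the counts over all tested members support nothing by themselves. Both J1 arrays were the lowest of all 10 for 1205 of the genes called higher (36.5%) and the highest for 1352 of those called lower (38.7%), so for these genes every other line lay on the TKO side of J1.

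**Figure D1:**
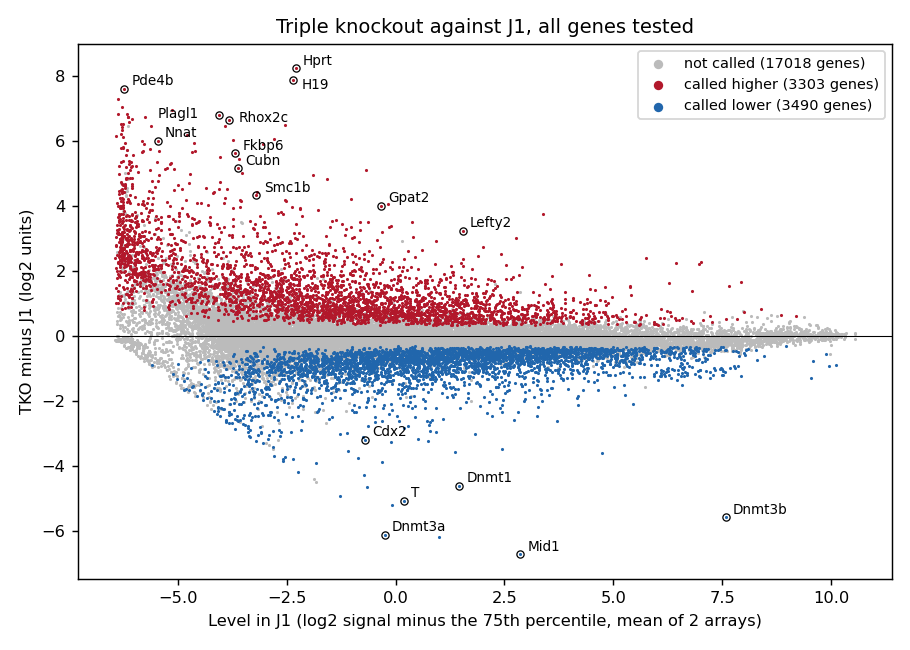
The plot sets the difference between TKO and J1 (log2 units, vertical) against the J1 level (log2 signal minus the 75th percentile, mean of 2 arrays, horizontal), 1 point per tested gene. Red points are the 3303 genes called higher, blue points the 3490 called lower and grey points the rest, and the largest rises lie at the left, where J1 is dim.

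The largest rise among genes with a standard name was Hprt, the purine salvage enzyme encoded on the X chromosome (mm9 chromosome X, 50374757 to 50374816). It stood at -2.35 and -2.26 in J1 and 5.95 in TKO, a rise of 8.25 ± 0.18 or 304-fold (limma adjusted p = 8.52e-05). All other lines lay at the TKO level, at 5.81 in Dnmt1_KO, 6.27 and 6.49 in Dnmt3b_KO and 6.06 to 6.56 on the PRDM14-labelled arrays, so J1 alone was low. Plagl1, a paternally expressed zinc finger gene, shared that pattern with the probe that stands for it, at -4.25 and -3.88 in J1, 2.75 in TKO, 3.22 in Dnmt1_KO, 2.22 and 2.57 in Dnmt3b_KO and 0.99 to 3.25 on the PRDM14-labelled arrays. Another Plagl1 probe, used when probes had to be above background on all 10 arrays, gave a difference of 0.36 that did not pass (limma adjusted p = 0.402), and the mean of the probes gave 3.60. The mirror image was Mid1, an X-linked ubiquitin ligase, at 2.89 and 2.83 in J1 and -3.87 in TKO, where it was not above background and had a difference of at most -6.73 (limma adjusted p = 0.000271). It stood at -2.13 in Dnmt1_KO, -2.51 and -2.60 in Dnmt3b_KO and -5.92 to -4.83 on the PRDM14-labelled arrays, so J1 alone was high. Pop4, a subunit of RNase P, fell by 3.62 ± 0.14, again with every other line near TKO (1.09 in Dnmt1_KO and 1.12 and 1.34 in Dnmt3b_KO, against 4.71 and 4.77 in J1).

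Other large rises set TKO and Dnmt1_KO apart from the rest. H19, a maternally expressed long noncoding RNA (mm9 chromosome 7, 149761492 to 149761551), stood at -2.58 and -2.14 in J1, -1.79 and -1.93 in Dnmt3b_KO, -0.04 to 1.25 on the PRDM14-labelled arrays, 5.52 in TKO and 6.86 in Dnmt1_KO. The 2 lines without Dnmt1 were above all other arrays, and the rise in TKO was 7.88 ± 0.20 (limma adjusted p = 0.000137). Cd99, a cell surface glycoprotein, rose by 6.49 ± 0.20, from -2.42 and -2.68 in J1 to 3.94 in TKO, with 4.39 in Dnmt1_KO, 0.50 and 0.32 in Dnmt3b_KO and -3.00 to -1.06 on the PRDM14-labelled arrays. Others were far higher in TKO than on any other array. Pde4b, a phosphodiesterase that breaks down cyclic AMP, was not above background in J1 (-6.45 and -6.03), stood at 1.39 in TKO and was at least 48.4-fold higher (limma adjusted p = 0.000245). Here Dnmt1_KO lay at -3.68, and TKO exceeded it by 5.07 (limma adjusted p = 0.00272). Tnr, an extracellular matrix protein of the nervous system, was at least 31.9-fold higher than in J1, at 0.79 in TKO, -6.37 in Dnmt1_KO, -6.20 and -6.66 in Dnmt3b_KO and -6.68 to -2.69 on the PRDM14-labelled arrays. The SE of its difference was 1.13. Tnr passed the filter on dim probes through the TKO array alone, so the filter itself required it to be bright there.

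Among the falls, T (Brachyury), the transcription factor of the primitive streak (mm9 chromosome 17, 8635302 to 8635361), was among the largest. T stood at 0.12 and 0.24 in J1, 0.12 in Dnmt1_KO, 1.47 and 1.68 in Dnmt3b_KO and -4.91 in TKO, where it was not above background. That is at least 23.9-fold lower than J1 (limma adjusted p = 0.000252). The 4 PRDM14-labelled arrays were low as well (-4.40 to -3.77). Wnt3, a ligand that acts upstream of T in the streak, was at -1.11 and -1.06 in J1, -4.64 in TKO, 0.22 in Dnmt1_KO and -0.26 and -0.34 in Dnmt3b_KO, and -4.45 to -3.27 on the PRDM14-labelled arrays, at least 9.92-fold lower than J1. Against Dnmt1_KO and Dnmt3b_KO, T was lower by at least 22.8-fold and 62.6-fold, and Wnt3 by at least 24.5-fold and 17-fold (limma adjusted p = 0.00127, 0.000201, 0.00116 and 0.000243). Gpat3, an enzyme of glycerolipid synthesis, fell by 3.59 ± 0.16, from 1.31 and 1.43 to -2.21. Cst13, Nt5e and Tmprss5, a cystatin, the ecto-5-prime-nucleotidase CD73 and a serine protease, were at least 13.4, 14.9 and 11.6-fold lower (limma adjusted p = 0.000307, 0.00382 and 0.00115). These falls were not particular to TKO. Dnmt1_KO was low as well for Cst13 (-5.0, TKO -5.3) and Tmprss5 (-5.8, TKO -4.6). For Nt5e (TKO -4.2) Dnmt1_KO stood at -0.8, and the PRDM14-labelled arrays were lower than TKO (-6.7 to -5.4).

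**Figure D2:**
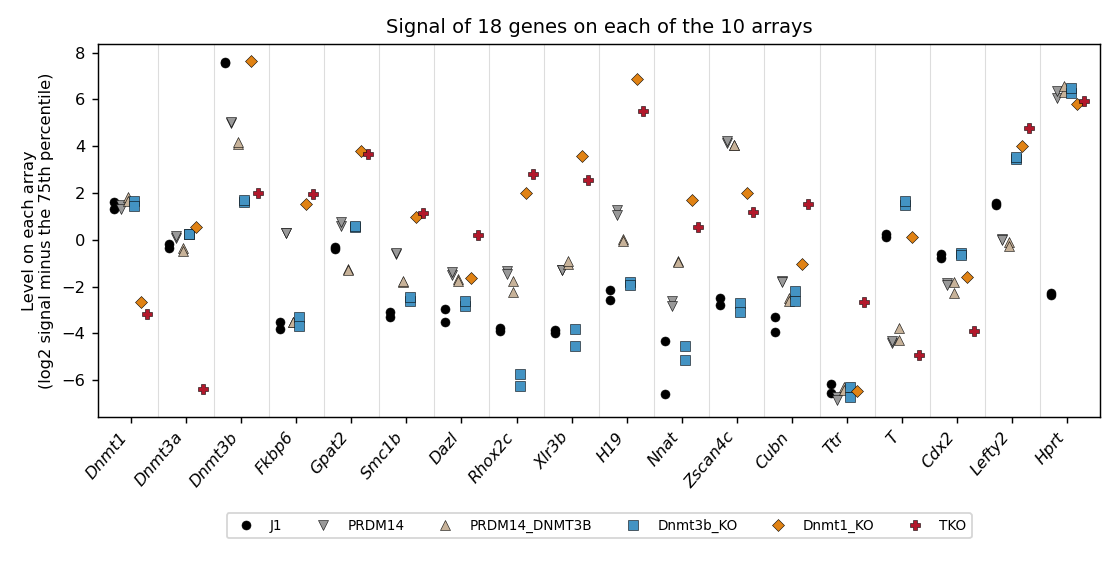
Each column shows the level of 1 gene (log2 signal minus the 75th percentile) on all 10 arrays, with 1 symbol per array and 1 symbol shape per group. Fkbp6, Smc1b, Rhox2c and H19 are high in TKO and Dnmt1_KO, Cubn and Ttr are highest in TKO, T and Cdx2 are lowest there, and Hprt is low in J1 alone. Ttr entered the test only through the TKO array.

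Germline genes whose promoters are rich in CpG are the classical targets of this silencing, so the sequences just upstream of 4 of them are shown. Fkbp6, Gpat2 and Smc1b carry large rises of the piRNA and meiosis lists, and Dazl is the germ cell regulator that rose most. Each is 250 bases before the transcription start, 5′ to 3′, from the RefSeq table of GRCm38.p6, with every CpG in capitals. Fkbp6 lies at chr5:135349914-135350163, minus strand, with 29 CpG (the first of 2 starts listed). Gpat2 lies at chr2:127424949-127425198, plus strand, with 11. Smc1b lies at chr15:85131958-85132207, minus strand, with 25. Dazl lies at chr17:50293621-50293870, minus strand, with 20.
Fkbp6: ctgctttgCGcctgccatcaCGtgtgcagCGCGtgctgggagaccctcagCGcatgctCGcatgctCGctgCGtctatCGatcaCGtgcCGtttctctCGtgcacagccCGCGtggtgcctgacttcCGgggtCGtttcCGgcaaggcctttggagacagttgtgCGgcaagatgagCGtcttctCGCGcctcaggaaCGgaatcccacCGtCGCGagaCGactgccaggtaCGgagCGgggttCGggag
Gpat2: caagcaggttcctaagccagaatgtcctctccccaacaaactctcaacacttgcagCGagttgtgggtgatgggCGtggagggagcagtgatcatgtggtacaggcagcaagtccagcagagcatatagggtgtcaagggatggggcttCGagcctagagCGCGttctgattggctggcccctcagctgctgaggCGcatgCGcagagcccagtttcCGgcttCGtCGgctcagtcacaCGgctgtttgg
Smc1b: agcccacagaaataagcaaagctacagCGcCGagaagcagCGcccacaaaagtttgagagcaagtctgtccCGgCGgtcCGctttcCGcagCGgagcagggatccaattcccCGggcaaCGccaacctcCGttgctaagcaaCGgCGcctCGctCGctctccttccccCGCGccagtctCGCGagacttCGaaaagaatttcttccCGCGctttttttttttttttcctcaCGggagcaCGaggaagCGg
Dazl: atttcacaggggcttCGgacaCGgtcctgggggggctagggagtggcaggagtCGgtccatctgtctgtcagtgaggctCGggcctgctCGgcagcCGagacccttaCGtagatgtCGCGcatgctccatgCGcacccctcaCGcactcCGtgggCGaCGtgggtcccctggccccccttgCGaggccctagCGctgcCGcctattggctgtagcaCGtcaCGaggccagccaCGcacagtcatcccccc
CpG dinucleotides run through the whole of the Fkbp6, Smc1b and Dazl windows, and in Gpat2 they crowd towards the start.

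The piRNA pathway makes small RNAs that guide Piwi proteins against transposons in the male germline. Of its 22 listed genes 17 were tested, of which 9 rose, 0 fell and 8 did not pass, and the median difference was 1.12, or 0.74 with dim genes at their bound, beside -0.07 over all genes. Of 12 members above background on both J1 arrays, 6 rose and 0 fell, with a median of 0.42. Fkbp6, a chaperone of piRNA loading, stood at -3.54 and -3.83 in J1, -3.29 and -3.70 in Dnmt3b_KO, -3.52 to 0.28 on the PRDM14-labelled arrays, 1.54 in Dnmt1_KO and 1.95 in TKO, and rose by 5.63 ± 0.20 (limma adjusted p = 0.000206). TKO and Dnmt1_KO lay above all other arrays, and of the J1 arrays 1 of 2 was above background. Gpat2, an acyltransferase needed for piRNA production in testis, stood at -0.32 and -0.38 in J1, 0.54 and 0.57 in Dnmt3b_KO, -1.28 to 0.75 on the PRDM14-labelled arrays, 3.81 in Dnmt1_KO and 3.66 in TKO, and rose by 4.01 ± 0.11 (limma adjusted p = 0.000195). Gtsf1, a Piwi cofactor, rose by 3.20 ± 0.13, from -0.22 and -0.40 to 2.89. Piwil2, one of the Piwi proteins themselves, rose by 3.62 ± 0.23, from -3.92 and -3.57 to -0.13. Asz1, a protein of the mitochondria where piRNAs mature, was at least 5.86-fold higher (limma adjusted p = 0.000351). The pathway did not move as one: the helicase Ddx4 (Vasa), already at 0.92 and 1.25 in J1, stood at 1.18 in TKO and did not pass (0.09), nor did the Tudor genes Tdrd5, Tdrd7 and Tdrd12 (-0.47, -0.34 and 0.09).

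Meiosis genes encode the cohesins, the axis and the synaptonemal complex that pair chromosomes. Of 24 tested of 30 listed, 14 rose, 2 fell and 8 did not pass, with a median of 1.38 (1.17 with bounds). Of 20 members above background on both J1 arrays, 11 rose and 2 fell, with a median of 1.08. Smc1b, the meiotic cohesin subunit, stood at -3.30 and -3.10 in J1, -2.62 and -2.46 in Dnmt3b_KO, -1.80 to -0.55 on the PRDM14-labelled arrays, 0.99 in Dnmt1_KO and 1.14 in TKO, and rose by 4.34 ± 0.13 (limma adjusted p = 0.000206). Again the 2 lines without Dnmt1 stood above the rest. Syce3, of the central element of the synaptonemal complex, rose by 3.37 ± 0.17, from -0.04 and -0.25 to 3.22. Its partner Syce1 rose by 1.98 ± 0.13. Tex12, of the same element, and Tex14, which keeps germ cells joined by cytoplasmic bridges, were at least 5.5 and 11.1-fold higher (limma adjusted p = 0.00138 and 0.000206). Tex11 and Hormad1, which act in crossover formation and on the chromosome axis, rose by 3.17 and 2.88. Stra8, which responds to retinoic acid at meiotic entry, rose by 1.13, a call that ended without the 4 PRDM14-labelled arrays. Against that trend the axis protein Sycp3 fell by 1.05 ± 0.13, from 1.08 and 1.04 to 0.01 (limma adjusted p = 0.00382). The recombinase Dmc1 fell by 0.98 (limma adjusted p = 0.0321). That Dmc1 call ended in 8 alternatives, among them normexp correction, the mean of probes and fits without either J1 or either PRDM14 array. Sycp1, the central filament, did not pass (0.45).

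The regulators of germ cell fate moved in both directions. Of 19 tested of 21, 8 rose, 3 fell and 8 did not pass, with a median of 0.42, and 3 to 10 rose over the alternatives (5 rose without J1 replicate 1 or either PRDM14 array). Of 18 members above background on both J1 arrays, 8 rose and 3 fell, with a median of 0.39. Dazl, an RNA-binding protein that licenses gametogenesis, stood at -3.52 and -2.96 in J1, -1.64 in Dnmt1_KO, -2.83 and -2.63 in Dnmt3b_KO, -1.78 to -1.37 on the PRDM14-labelled arrays and 0.20 in TKO. It rose by 3.44 ± 0.24 over J1 (limma adjusted p = 0.000686) and lay above Dnmt1_KO by 1.84 (limma adjusted p = 0.0166). Tfap2c, a specification factor of primordial germ cells, went the other way and fell by 1.79 ± 0.10, from 3.38 and 3.27 to 1.53, with 2.85 in Dnmt1_KO and 3.48 and 3.41 in Dnmt3b_KO. Prdm14, a regulator of primordial germ cells and pluripotency, rose by 0.84 ± 0.15, from -0.08 and 0.09 to 0.85, with 0.20 in Dnmt1_KO and 1.18 and 1.15 in Dnmt3b_KO (limma adjusted p = 0.0121).

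The direct differences from the single knockouts are given for the same lists. In TKO against Dnmt1_KO, where 1021 of 23811 genes were higher (4.29%) and 1157 lower (4.86%), 0 piRNA genes were called higher and 1 lower, and 4 meiosis genes higher and 0 lower. The meiosis genes higher in TKO included Syce3, by 1.03, Syce2, by 1.06, Syce1, by 0.74, and Sycp3, by 0.71. For Fkbp6, Gpat2 and Smc1b the differences of 0.41, -0.14 and 0.14 did not pass (limma adjusted p = 0.376, 0.596 and 0.661), which with 1 array on each side does not show equal levels. In TKO against Dnmt3b_KO, where 2267 genes were higher (9.52%) and 2035 lower (8.55%), 7 piRNA and 16 meiosis genes were higher, Fkbp6 by 5.44 and Smc1b by 3.68 (limma adjusted p = 0.000201 and 0.000201). In Dnmt3b_KO, Fkbp6 and Smc1b lay at -3.29 and -3.70 and at -2.62 and -2.46, and Tex14 at -1.10 and -1.11, above its J1 values of -4.26 and -4.27. The comparisons share the TKO array, so they are not independent of each other.

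A second block of germline genes lies on the X chromosome, where many occur as near-identical copies that may share probe signal. Of 34 tested testis antigen and X-linked germline genes (44 listed), 26 rose, 1 fell and 7 did not pass, with a median of 3.49 (2.29 with bounds). Only 11 of them were above background on both J1 arrays, of which 7 rose and 1 fell, with a median of 1.70. In the Xlr family of X-linked lymphocyte-regulated genes, Xlr3b stood at -3.84 and -4.01 in J1, -4.57 and -3.84 in Dnmt3b_KO, -1.30 to -0.92 on the PRDM14-labelled arrays, 3.60 in Dnmt1_KO and 2.56 in TKO, and rose by 6.48 ± 0.29 (limma adjusted p = 0.000263). Of the J1 arrays 1 of 2 was above background for Xlr3b. Xlr4a and Xlr5b were at least 28.5 and 17.4-fold higher (limma adjusted p = 0.00235 and 0.000686). Xlr4b was at least 33.4-fold higher (limma adjusted p = 0.0164; 0.0533 without J1 replicate 1). All of these were as high or higher in Dnmt1_KO. The Magea antigens, melanoma antigens that are otherwise confined to testis, were measured in TKO at -0.80 (Magea8), -0.88 (Magea5) and -0.54 (Magea1), at least 10.6, 10.1 and 12.7-fold above J1. Dnmt1_KO lay lower for them, at -2.15, -2.56 and -2.12, a difference that passed for Magea5 (1.69, limma adjusted p = 0.0394) and not for the others. Nxf3, an X-linked relative of the mRNA exporter, was at least 22.3-fold higher. Fthl17e, a ferritin-like gene, rose by 4.84 ± 0.25, from -1.85 and -1.32 to 3.25. Among autosomal members, Tuba3b, a testis alpha-tubulin, rose by 4.22 ± 0.23, from -1.20 and -0.84 to 3.19, and Tex101, a sperm maturation glycoprotein, by 2.45. Mageb16 was the 1 member that fell, by 0.94.

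The Rhox genes are reproductive homeobox genes in 1 cluster on the X chromosome, among the X-linked genes that rose most. The windows of Rhox2c (chrX:37453409-37453658, plus strand, 6 CpG) and of Xlr4b (chrX:73214083-73214332, plus strand, 8 CpG) are shown because they hold fewer CpG than the autosomal windows printed above, in the same form.
Rhox2c: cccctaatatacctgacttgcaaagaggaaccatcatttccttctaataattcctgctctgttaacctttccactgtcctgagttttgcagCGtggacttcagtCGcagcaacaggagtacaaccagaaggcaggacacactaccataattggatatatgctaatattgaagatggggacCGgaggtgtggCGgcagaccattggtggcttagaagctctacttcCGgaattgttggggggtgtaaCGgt
Xlr4b: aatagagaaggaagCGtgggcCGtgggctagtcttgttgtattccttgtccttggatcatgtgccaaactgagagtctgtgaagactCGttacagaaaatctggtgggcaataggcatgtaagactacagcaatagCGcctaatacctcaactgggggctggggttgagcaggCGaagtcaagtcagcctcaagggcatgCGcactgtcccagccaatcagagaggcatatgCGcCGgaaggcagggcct
Of 16 Rhox genes tested, 8 rose, 4 fell and 4 did not pass, with a median of 1.51. Of 8 members above background on both J1 arrays, 4 rose and 4 fell. The call of Rhox8, 1 of the falls, ended in 9 alternatives, among them quantile and median scaling. The cluster split in 2 directions. Rhox2c stood at -3.90 and -3.75 in J1, -6.25 and -5.76 in Dnmt3b_KO, -2.25 to -1.35 on the PRDM14-labelled arrays, 2.02 in Dnmt1_KO and 2.82 in TKO, a rise of 6.65 ± 0.27 (limma adjusted p = 0.000245). Rhox2h, Rhox2e, Rhox4g and Rhox4a rose by 6.06, 6.04, 5.50 and 5.01, the last 3 above background on 1 of 2 J1 arrays, and the copies of Rhox2 and Rhox4 may share signal. Rhox10 and Rhox13 rose by 2.92 and 1.24. The members that were bright in J1 fell: Rhox5 (Pem), at 7.62 and 7.41 in J1 and 6.30 in TKO, fell by 1.21 ± 0.15, and Rhox6 and Rhox9 fell by 1.43 and 1.67 (limma adjusted p = 0.00326, 0.0048 and 0.000715). Rhox6 and Rhox9 were also lower than in Dnmt1_KO, by 2.02 and 2.12 (limma adjusted p = 0.00663 and 0.00204), where they stood at 3.03 and 3.51 against 1.00 and 1.39 in TKO. Against Dnmt3b_KO, 9 Rhox genes were higher and 0 lower.

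Imprinted genes are expressed from 1 parental copy under control of differentially methylated regions. Of 28 paternally expressed genes tested, 14 rose, 6 fell and 8 did not pass, with a median of 0.52. Of 23 members above background on both J1 arrays, 9 rose and 6 fell, with a median of 0.18, and over all tested members the falls ran from 2 to 6 over the alternatives (3 fell without J1 replicate 2). Nnat, a membrane proteolipid, was not above background in J1 (-6.60 and -4.34), stood at 0.54 in TKO, 1.70 in Dnmt1_KO, -5.12 and -4.56 in Dnmt3b_KO and -2.85 to -0.93 on the PRDM14-labelled arrays, and was at least 26.9-fold higher than J1 (limma adjusted p = 0.0054). Its window is shown as an imprinted promoter (chr2:157559828-157560077, plus strand, 12 CpG).
Nnat: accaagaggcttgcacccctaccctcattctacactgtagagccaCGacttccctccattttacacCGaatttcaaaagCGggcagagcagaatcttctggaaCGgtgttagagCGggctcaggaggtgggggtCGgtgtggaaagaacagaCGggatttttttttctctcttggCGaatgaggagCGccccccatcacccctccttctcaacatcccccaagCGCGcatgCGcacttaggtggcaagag
Peg13, a noncoding RNA above background on 1 of 2 J1 arrays, rose by 5.30 ± 0.72, but Dnmt3b_KO was high as well (-0.76 and -0.81, TKO 0.12, J1 -4.20 and -6.16). Dlk1, a Notch ligand relative, rose by 1.79 ± 0.18, from 1.20 and 1.11 to 2.94. Ndn and Snrpn, of the Prader-Willi region, and Peg3 rose by 1.00, 0.85 and 0.84. Sfmbt2, a Polycomb-group gene, fell by 2.35 ± 0.22, from 2.73 and 2.88 to 0.46, with 2.15 in Dnmt1_KO and 3.09 and 3.50 in Dnmt3b_KO (limma adjusted p = 0.00142).

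Of 26 maternally expressed genes tested, 5 rose, 5 fell and 16 did not pass, with a median of -0.05 (3 rose without either J1 array or either PRDM14 array, and 3 fell without J1 replicate 2). Of 23 members above background on both J1 arrays, 5 rose and 5 fell. H19 was described above. Its neighbour Igf2, expressed from the other parental copy under the same control region, was at -2.48 and -2.75 in J1, -4.15 in Dnmt1_KO, -3.81 and -3.20 in Dnmt3b_KO and -4.29 in TKO, where it was not above background. It was at least 3.19-fold lower than in J1 (limma adjusted p = 0.0151; 0.0514 without J1 replicate 1). Mirg, a maternally expressed RNA of the Dlk1 domain, rose by 1.85 ± 0.11, and Atp10a, a lipid flippase, by 1.41. Cdkn1c (p57), a cell cycle inhibitor, fell by 1.43 ± 0.10, from 4.50 and 4.60 to 3.13, with 2.48 in Dnmt1_KO and 3.34 and 3.41 in Dnmt3b_KO. Grb10, a growth inhibitor of insulin signalling, fell by 1.42 ± 0.13, from 1.53 and 1.62 to 0.15, with -1.36 in Dnmt1_KO (limma adjusted p = 0.000731 and 0.00134). H19 and Igf2 thus moved in opposite directions in TKO, and so did Dlk1 and Sfmbt2 among the paternal genes.

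Genes of the 2-cell embryo appear in rare cells of such cultures. Of 18 tested of 27 listed, 12 rose, 2 fell and 4 did not pass. The median was 2.92 (1.46 with bounds) and ran from 0.40 to 2.98 over the alternatives. Of 7 members above background on both J1 arrays, 4 rose and 2 fell. Zscan4c, which acts at telomeres and marks the stage, stood at -2.47 and -2.81 in J1, -2.71 and -3.09 in Dnmt3b_KO, 1.18 in TKO, 2.00 in Dnmt1_KO and 4.05 to 4.24 on the PRDM14-labelled arrays. It rose by 3.82 ± 0.21 over J1 (limma adjusted p = 0.000383), while the PRDM14-labelled arrays were higher still. Zscan4a, Zscan4e and Zscan4f, copies that may share signal, rose by 3.80, 3.98 and 3.93. Usp17la was at least 9.43-fold higher with the probe that stands for it, while its other probe was called lower. Tmem92 was at least 25.2-fold higher (limma adjusted p = 0.000245), and Pramel16 at least 3.47-fold. The Tdpoz genes of the same list did not pass (0.12, -0.27 and -0.21 for Tdpoz2, Tdpoz3 and Tdpoz4), and Zfp352 fell by 0.52, a call that ended without J1 replicate 2 and without the 4 PRDM14-labelled arrays. Against Dnmt1_KO 2 of the list were higher and 2 lower, and against Dnmt3b_KO 12 and 0.

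The pluripotency genes define the cell type and stayed measurable in TKO. The naive pluripotency list had 6 rises and 6 falls among 26 members, 14 did not pass, the median was 0.01, and all 26 were above background in TKO. The core factors Pou5f1 (Oct4), Nanog and Sox2 stood at 5.77, 5.92 and 3.39 in TKO and did not pass against J1 (-0.21, 0.00 and -0.27). Tfcp2l1, an effector of LIF signalling, fell by 1.60 ± 0.23, from 3.40 and 3.72 to 1.96, and stood at 2.02 in Dnmt1_KO and 4.19 and 4.50 in Dnmt3b_KO. Klf5 and Socs3, which also respond to LIF, fell by 1.14 and 1.01 (limma adjusted p = 0.00562, 0.00533 and 0.00156). Tdh, threonine dehydrogenase, rose by 1.40 ± 0.18, from 6.97 and 6.66 to 8.21, and was as high in Dnmt3b_KO (8.13 and 7.99). Against Dnmt1_KO 9 of the 26 were higher and 0 lower, among them Gbx2 by 1.39, Klf2 by 1.27 and Zfp42 (Rex1) by 1.22 (limma adjusted p = 0.00646, 0.00455 and 0.00464). Against Dnmt3b_KO 2 were higher and 8 lower, with Tfcp2l1 and Tbx3 lower by 2.38 and 2.37. Against J1, the counts ran from 3 to 9 higher and 3 to 7 lower over the alternatives (3 fell without J1 replicate 2).

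Of 26 genes of the primed epiblast, 7 rose, 7 fell and 12 did not pass, with a median of 0.03. Of 25 members above background on both J1 arrays, 7 rose and 7 fell. The list holds Dnmt3a and Dnmt3b, 2 of the falls. Lefty2, a secreted inhibitor of Nodal, stood at 1.58 and 1.50 in J1, 3.46 and 3.56 in Dnmt3b_KO, 4.01 in Dnmt1_KO, -0.25 to 0.05 on the PRDM14-labelled arrays and 4.78 in TKO. The TKO array was the highest of the 10, and the rise was 3.24 ± 0.11 (limma adjusted p = 0.000206). Lefty1 followed, with a rise of 2.46 ± 0.10, from 1.91 and 1.89 to 4.36. Both exceeded Dnmt1_KO and Dnmt3b_KO, Lefty2 by 0.76 and 1.27 and Lefty1 by 0.71 and 0.70. Nodal itself did not pass (0.28). Otx2, a homeobox factor of the epiblast, rose by 1.60 ± 0.11, and Sox3 by 0.94. Fst, an activin inhibitor, fell by 1.69 ± 0.20, from 2.46 and 2.67 to 0.87, while Dnmt1_KO and Dnmt3b_KO stood at 3.39 and 2.63 and 2.94. Fgf5 and Pou3f1, the usual markers of the primed state, did not pass (-0.52 and -0.36).

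The targets of FGF-ERK signalling, the pathway that drives exit from the naive state, leaned downwards. Of 23, 2 rose, 10 fell and 11 did not pass, with a median of -0.49 (-0.32 against the J1 array of the same slide). All were above background on both J1 arrays, where 17.3% of all genes fell. The feedback inhibitors Spry2, Spred1, Dusp4 and Dusp6 fell by 1.33, 0.89, 0.93 and 0.72 (limma adjusted p = 0.0024, 0.00427, 0.00223 and 0.00849). Spry2 stood at 2.19 and 2.04 in J1, 0.73 in Dnmt1_KO, 1.52 and 1.63 in Dnmt3b_KO and 0.78 in TKO. Myc fell by 0.99 ± 0.09, from 2.67 and 2.59 to 1.65. Not every target followed: Etv4 did not pass (-0.07), and Egr1, an immediate early gene, rose by 0.74, a call that ended with median scaling (1 rose without J1 replicate 2, either PRDM14 array, either PRDM14_DNMT3B array or either Dnmt3b_KO array). Against Dnmt3b_KO 11 were lower and 1 higher, and against Dnmt1_KO 4 and 2.

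Markers of primitive endoderm, the extraembryonic layer that lines the yolk sac, mostly rose in TKO, some of them from low levels. Of 19 tested of 21 listed, 16 rose, 0 fell and 3 did not pass, with a median of 2.33 (1.63 with bounds). Of 10 members above background on both J1 arrays, 7 rose and 0 fell, with a median of 1.23. Cubn, an endocytic receptor of visceral endoderm, stood at -3.93 and -3.31 in J1, -2.61 and -2.21 in Dnmt3b_KO, -1.04 in Dnmt1_KO, -2.60 to -1.77 on the PRDM14-labelled arrays and 1.54 in TKO, the highest of the 10 arrays. It rose by 5.16 ± 0.28 over J1 (limma adjusted p = 0.000383) and exceeded Dnmt1_KO by 2.59 (limma adjusted p = 0.00982). Ttr, a secreted product of visceral endoderm, was above background in TKO alone (-2.66, at least 2.93-fold higher than J1). It is 1 of 2 members that entered the test only through the TKO array, so its rise supports nothing by itself. Among the master regulators, Gata6 rose from -3.86 and -3.80 to -0.73 (limma adjusted p = 0.00182), Gata4 rose by 2.41 (each above background on 1 of 2 J1 arrays), and Sox17 was at least 7.55-fold higher. Gata6 and Gata4 also exceeded Dnmt1_KO, by 2.26 and 2.20 (limma adjusted p = 0.019 and 0.00567), and Dnmt3b_KO, by 3.48 and 1.94. Foxq1 and Afp, alpha-fetoprotein, were at least 7.37 and 7.52-fold higher than J1, and Afp did not differ past the threshold from Dnmt1_KO (0.10). Lama1, a laminin of the basement membrane, rose by 1.26 ± 0.12, from 3.27 and 3.33 to 4.56. Levels of the regulators stayed low in TKO, from -1.60 for Gata4 to -0.73 for Gata6, where 0 is the 75th percentile of the array. Gata4 lies on chromosome 14, and without genes of chromosomes 8 and 14, left out after seeing the data, 12 of 15 rose.

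Trophoblast markers moved the other way. Of 19 tested, 0 rose, 10 fell and 9 did not pass, with a median of -0.69 (1 rose without either PRDM14_DNMT3B array). Of 18 members above background on both J1 arrays, 0 rose and 10 fell, with a median of -0.88. Cdx2, the transcription factor of trophectoderm, stood at -0.63 and -0.79 in J1, -1.60 in Dnmt1_KO, -0.56 and -0.64 in Dnmt3b_KO, -2.28 to -1.79 on the PRDM14-labelled arrays and -3.91 in TKO, the lowest array. It fell by 3.20 ± 0.21 (limma adjusted p = 0.000577). The simple epithelial keratins Krt19, Krt8 and Krt18 fell by 2.02, 1.83 and 1.37, Krt8 from 5.27 and 5.29 to 3.45. In Dnmt1_KO and Dnmt3b_KO, Krt8 stood at 6.06 and 6.14 and 6.25, above J1, and the PRDM14-labelled arrays were lower than TKO (0.28 to 1.65). Gata3 and Tead4 fell by 1.49 and 1.08. Against Dnmt1_KO 11 of the list were lower and 0 higher, and against Dnmt3b_KO 9 and 2. The linear signal summed over the list was 67.1 in TKO against 174 and 165 in J1, in units of the 75th percentile.

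Of 10 mesoderm genes tested, 1 rose, 6 fell and 3 did not pass, with a median of -0.89. Of 9 members above background on both J1 arrays, 1 rose and 6 fell. T and Wnt3, described above, led the falls. Eomes, shared with the trophoblast list, fell by 1.29 ± 0.11 from 0.36 and 0.21 in J1, and stood at 1.58 in Dnmt1_KO; the call ended when the probes of a gene were averaged. Tbx6 and Kdr did not pass (0.00 and -0.09). Of 10 neural genes, 3 rose, 1 fell and 6 did not pass (0 fell without J1 replicate 1). Of 9 members above background on both J1 arrays, 3 rose and 1 fell. Hes5, a Notch target, rose by 1.88 ± 0.13, from -1.99 and -1.82 to -0.02, and Pax6 by 1.36 ± 0.16. Both exceeded the single knockouts, Hes5 by 1.53 and 2.15 and Pax6 by 2.45 and 2.07 (Dnmt1_KO and Dnmt3b_KO). Neurod1 and Tubb3 did not pass (0.12 and -0.12).

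Fibroblast markers were included as signs of other cells in the cultures. Of 15 tested of 17 listed, 8 rose, 0 fell and 7 did not pass, with a median of 0.54 (2 fell without J1 replicate 1). Col1a2 and Col1a1, the chains of type I collagen, rose by 2.79 ± 0.41 and 1.99 ± 0.11, to 0.74 and 0.01. Levels in Dnmt3b_KO were higher, at 1.42 and 1.42 for Col1a2, and 6 of the list were called lower in TKO than in Dnmt3b_KO. Dcn, Col3a1 and Pdgfrb, which mark fibroblasts, did not pass (-0.16, -0.71 and -0.51). The linear signal summed over the list was 83 in TKO, 70.2 and 74.9 in J1, 101 in Dnmt1_KO and 167 and 166 in Dnmt3b_KO. For primitive endoderm the sums were 292 in TKO, 244 and 223 in J1, 378 in Dnmt1_KO and 273 and 281 in Dnmt3b_KO. The Dnmt1_KO sum was thus above that of TKO. Most of the signal lay in Sparc, which did not pass (0.17). The part of other cell types in the results was not tested.

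**Figure D3:**
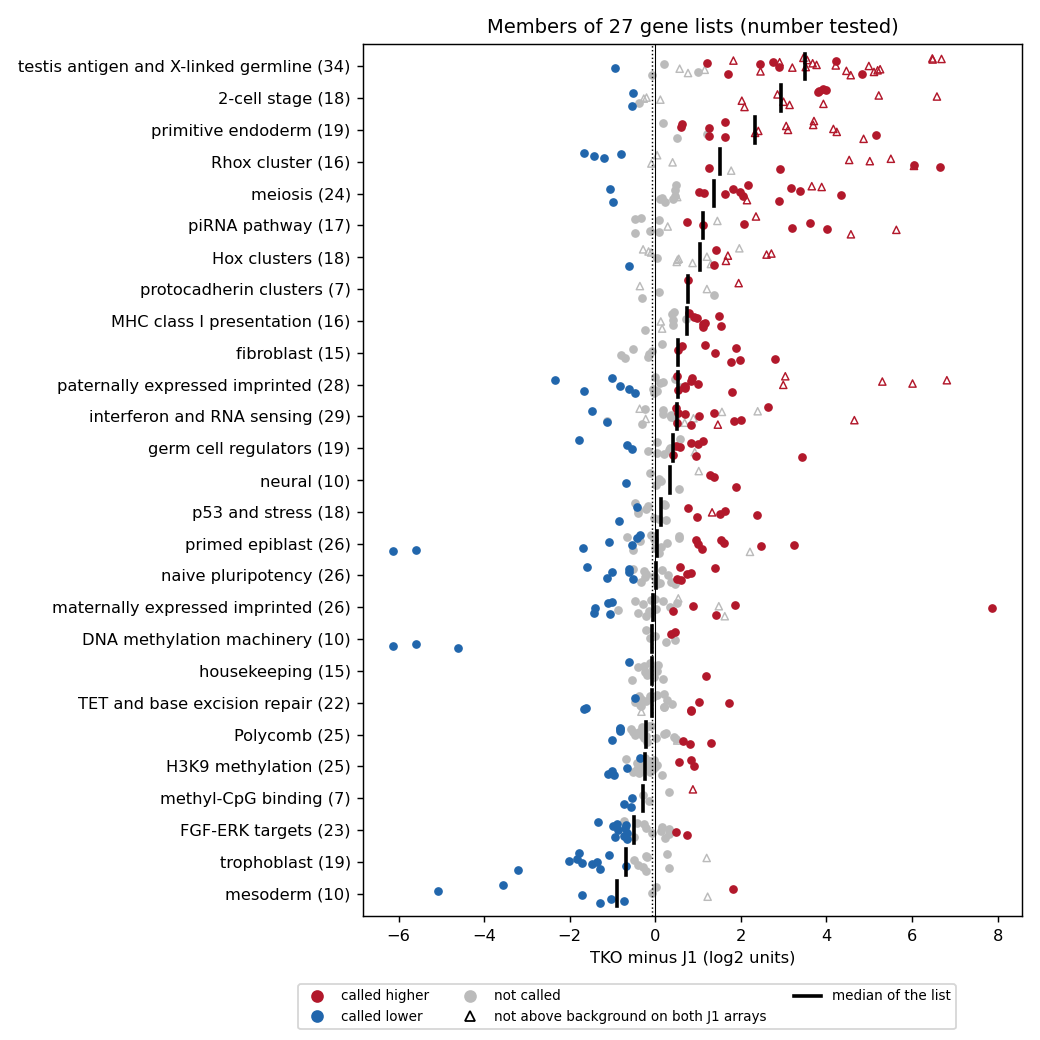
Each point is 1 member of 1 of 27 gene lists, placed by its difference between TKO and J1 (log2 units), and the number tested stands in brackets. Red and blue points were called higher and lower, triangles were not above background on both J1 arrays, black bars are list medians and the dotted line is the median of all genes, -0.07. Testis antigen, 2-cell and primitive endoderm lists lie highest, with many triangles, and mesoderm and trophoblast lists lie lowest.

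Interferon-stimulated and RNA-sensing genes respond to double-stranded RNA and to interferon. Of 29 tested of 38 listed, 12 rose, 2 fell and 15 did not pass, with a median of 0.51. Of 21 members above background on both J1 arrays, 10 rose and 2 fell. Zbp1, a nucleic acid sensor, stood at -2.65 and -2.89 in J1, -2.33 and -2.49 in Dnmt3b_KO, -0.13 in TKO and 1.13 in Dnmt1_KO, and rose by 2.64 ± 0.17 (limma adjusted p = 0.000554). Ifi35 rose by 2.00 ± 0.19, from -0.79 and -1.08 to 1.06, and Ifi27 was at least 14.6-fold higher. Samd9l and Eif2ak2 (PKR), the kinase that senses double-stranded RNA, fell by 1.47 and 1.13. Direct comparison with Dnmt1_KO gave 0 higher and 12 lower, among them Cxcl10, lower by 3.67, Gbp2, by 2.81, and Isg15, by 1.98 (limma adjusted p = 0.00394, 0.0287 and 0.0224). For these genes Dnmt1_KO was therefore the line with the higher levels. Of 16 genes of MHC class I presentation, 8 rose, 0 fell and 8 did not pass, with a median of 0.74. Of 14 members above background on both J1 arrays, 8 rose and 0 fell. H2-K1, a classical class I chain, rose by 1.52 ± 0.10, from 2.34 and 2.30 to 3.84, with 4.19 in Dnmt1_KO and 2.80 and 2.87 in Dnmt3b_KO. H2-D1 and H2-T23 rose by 1.10 and 1.16. B2m, the shared light chain, did not pass (-0.24). Psme2, a proteasome activator, rose by 1.50, and lies on chromosome 14.

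Among other layers of gene silencing, 28% of Polycomb, 32% of H3K9 methylation and 31.8% of TET and repair genes were called. These shares lie near the 28.5% of all tested genes, so the counts show nothing particular to these lists. For methyl-CpG binding proteins, a list of 7 genes, the share was 57.1%. Of 25 Polycomb genes, with a median of -0.23, 3 rose, 4 fell and 18 did not pass (1 rose without J1 replicate 1). Of 24 members above background on both J1 arrays, 3 rose and 4 fell. Eed, a core subunit of PRC2, fell by 1.01 ± 0.14, from 6.27 and 6.19 to 5.22, while its partners Ezh2 and Suz12 did not pass (0.01 and -0.14). Rnf2, the main ubiquitin ligase of PRC1, fell by 0.82. The largest rise of the list was that of Bmi1, by 1.29. Its call ended with median scaling, without the 4 PRDM14-labelled arrays and without J1 replicate 1. Of 25 genes of H3K9 methylation and its readers, 3 rose, 5 fell and 17 did not pass, and 2 to 7 fell over the alternatives (3 fell without J1 replicate 2 or either PRDM14 array). Cbx1, a heterochromatin protein, and E2f6, which helps to repress germline genes, fell by 1.10 and 1.02 (limma adjusted p = 0.00118 and 0.0123). Setdb1, which silences retroelements with Trim28, did not pass (-0.13). Of 22 genes of TET oxidation and base excision repair, 4 rose, 3 fell and 15 did not pass. Of 21 members above background on both J1 arrays, 4 rose and 3 fell. Tet1, Tet2 and Tet3 did not pass (-0.05, -0.38 and -0.13), the DNA glycosylase Nthl1 rose by 1.03 ± 0.14, and the stress genes Gadd45a and Gadd45b fell by 1.66 and 1.62. The largest rise was that of Neil3, by 1.71 ± 0.31, a call that ended without the 4 PRDM14-labelled arrays. Of 7 methyl-CpG binding proteins, 1 rose, 3 fell and 3 did not pass (0 rose without either J1 array, either PRDM14 array or either Dnmt3b_KO array, and 1 fell without J1 replicate 2 or either PRDM14_DNMT3B array). Of 6 members above background on both J1 arrays, 0 rose and 3 fell. Mbd2 fell by 0.73 ± 0.11, from 1.08 and 0.98 to 0.30 (limma adjusted p = 0.00618).

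Few genes of the clustered developmental families could be measured. Of 39 Hox genes listed 18 were tested, 6 rose, 1 fell and 11 did not pass (0 fell without J1 replicate 2, either PRDM14 array or either PRDM14_DNMT3B array, and 2 fell without J1 replicate 1), and 4 were tested only because they were above background in TKO. Of 4 members above background on both J1 arrays, 2 rose and 1 fell. Hoxc9, one of those above background in TKO alone, was at least 1.83-fold higher, and its call ended with normexp correction. Of 58 clustered protocadherins 7 were tested, 2 rose, 0 fell and 5 did not pass, and of 4 members above background on both J1 arrays, 1 rose and 0 fell. The share called was 28.6%, near the 28.5% of all tested genes. Pcdhga1 was at least 3.42-fold higher (limma adjusted p = 0.00279). Of 18 p53 and stress genes, 6 rose, 2 fell and 10 did not pass (0 fell without J1 replicate 2, and 1 fell without J1 replicate 1, either PRDM14 array, either PRDM14_DNMT3B array or either Dnmt3b_KO array). Of 17 members above background on both J1 arrays, 5 rose and 2 fell. Cdkn2a, the Ink4a/Arf cell cycle brake, rose by 2.39 ± 0.10, from 1.60 and 1.52 to 3.94, with 3.48 in Dnmt1_KO and 2.28 and 2.30 in Dnmt3b_KO (limma adjusted p = 0.000245). The p53 targets Mdm2, Ccng1 and Bax did not pass (-0.39, -0.04 and 0.26). Of 15 housekeeping genes, 1 rose, 1 fell and 13 did not pass (2 fell without J1 replicate 2). Gusb stood apart with a rise of 1.17, and Gapdh and Actb did not pass (-0.04 and -0.54).

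Promoter CpG content was set beside the calls for the 12222 tested genes with a RefSeq window (250 bases before to 50 after the start, GRCm38.p6). The window with the most CpG stood for a gene with several starts. Genes called higher had a median of 17 CpG per window, genes called lower 22 and all genes 20. Genes higher by over 2-fold had 11 (95% order-statistic interval 10 to 13). Genes dim in J1 are poor in CpG whatever they did, with a median of 7 both among those of them higher by over 2-fold and among those not called. Among genes above background on both J1 arrays, the share called higher was 16.8% at 0 to 4 CpG, 21.3% at 5 to 9, 15.4% at 10 to 14 and 12.4% at 25 or more. The share called lower ran the other way, from 14.7% and 13.8% in the poorest classes to 18.2% in the richest. Genes are not independent replicates, and this is a description without a test. The 49 genes of the piRNA, meiosis, germ cell and testis antigen lists that rose had a median of 16 CpG, and the 26 not called had 16.5. A motif of E2F factors, TCCCGC on either strand, was present in 28.6% of those that rose and 34.6% of those not called, against 34.8% of all tested genes and 6562 of all 32851 windows of the table. The E-box CACGTG, which reads the same on both strands and holds a CpG, was present in 18.4% and 26.9%, against 10.0% of tested genes and 7.15% of all windows. A match of one motif can share at most 1 base with a match of the other. Among the sequences printed above, Smc1b holds the E2F letters and Fkbp6 the E-box, and Gpat2 holds the E2F letters only beyond the last printed base or across it.

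**Figure D4:**
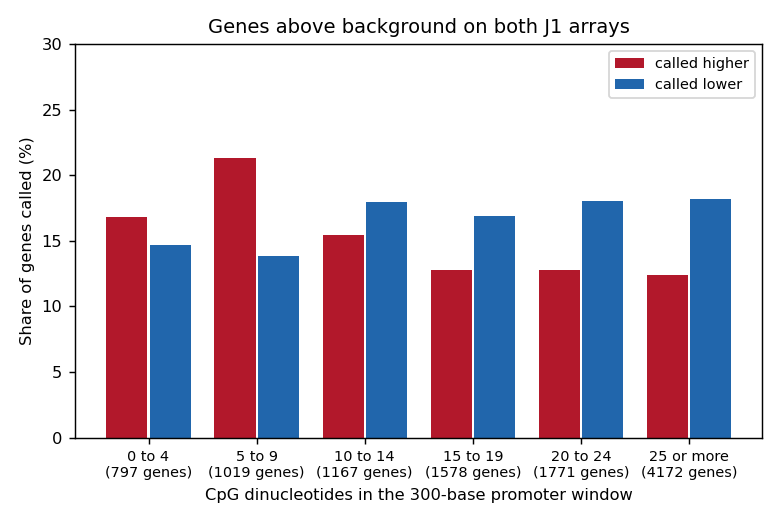
Bars give the share of genes called higher (red) and lower (blue) in TKO against J1, in percent, by the number of CpG in the 300-base promoter window, for genes above background on both J1 arrays. The share called higher is 21.3% at 5 to 9 CpG and 12.4% at 25 or more.

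Differences also varied by chromosome. Genes of chromosome 8 had a median difference 0.233 above the other autosomes, 0.209 against J1 replicate 1 and 0.240 against replicate 2, and 284 of 1292 were called higher (22.0%). The shift was as large against Dnmt1_KO (0.210) and Dnmt3b_KO (0.220), and 0.122 against J1 with normexp correction. In 4 stretches of 323 genes along the chromosome it was 0.304, 0.404, 0.288 and, in the last, -0.058. Chromosome 14 lay 0.207 above the other autosomes against J1, with 228 of 927 genes called higher (24.6%), but 0.040 against Dnmt1_KO and -0.013 against Dnmt3b_KO. Chromosome 11 lay 0.051 above the others against J1 and -0.141 against Dnmt1_KO. The median of the X chromosome lay at -0.010 from the other autosomes against J1, and 178 of its 961 tested genes were called higher (18.5%) and 162 lower (16.9%). Among the genes described above, Syce2, Klf2, Zfp42, Dusp4 and Neil3 lie on chromosome 8, and Piwil2, Klf5, Otx2, Tdh, Spry2, Gata4 and Psme2 on chromosome 14. Without the genes of both chromosomes, left out after seeing the data, the piRNA list had 8 higher of 15, the meiosis list 11 of 21 and the FGF-ERK list 8 lower of 19.

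**Figure D5:**
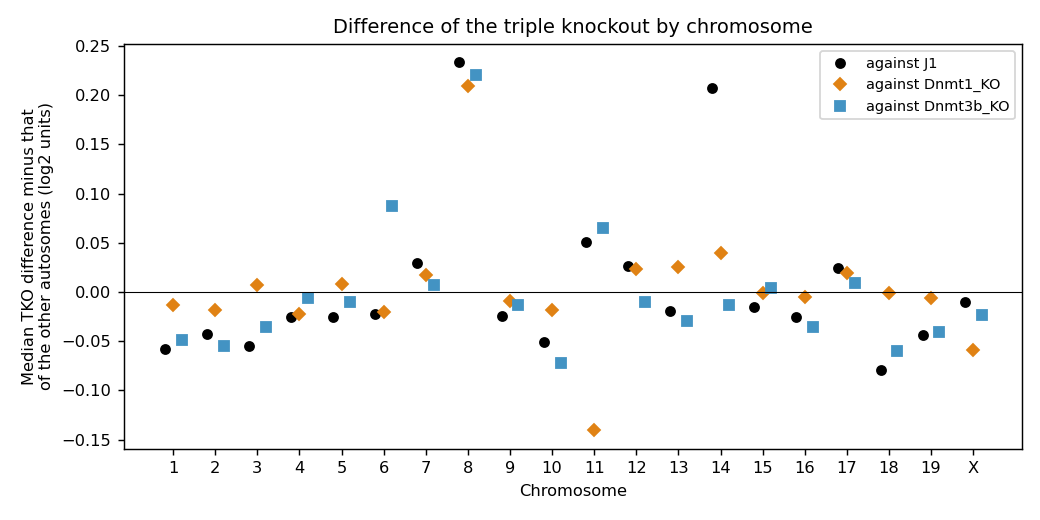
Each point is the median difference of TKO on 1 chromosome minus the median of the other autosomes, in log2 units, against J1 (circles), Dnmt1_KO (diamonds) and Dnmt3b_KO (squares). Chromosome 8 is high in all 3 comparisons, chromosome 14 is high only against J1, and chromosome 11 is low only against Dnmt1_KO.

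Over all genes, the TKO array differed least from the Dnmt1_KO array, the only other array of its slide and scan pass, and the part of the shared slide and pass was not tested. Of 18254 genes above background on all arrays, 4.38% differed by over 2-fold between the TKO and Dnmt1_KO arrays, against 6.55% and 7.60% for the Dnmt3b_KO arrays on its slide and on another, 9.75% and 11.5% for the J1 arrays on its slide and on another, 11.8% to 15.2% for the PRDM14-labelled arrays, and 0.948% between the J1 replicates. In TKO against Dnmt1_KO, lines that both lack Dnmt1 and differ in the de novo enzymes, 2178 genes were called (9.15%). In TKO against Dnmt3b_KO 4302 were called (18.1%), of which 52.7% were higher, or 36.8% when arrays were scaled by their median. Without Dnmt3b_KO replicate 1 or 2 these calls came to 2727 or 2507. Against Dnmt1_KO, calls in primitive endoderm genes (7 higher, 1 lower) and naive pluripotency genes (9 and 0) were mostly higher. Those in trophoblast (0 and 11), interferon (0 and 12), MHC class I (0 and 6), mesoderm (0 and 5), paternally expressed imprinted (0 and 5) and p53 and stress genes (0 and 4) were all lower. Of the primed epiblast genes 3 were higher and 7 lower, and those 7 include Dnmt3a and Dnmt3b, which are deleted in TKO. Leaving out either PRDM14 array brought the 2178 calls to 1359, and leaving out all 4 PRDM14-labelled arrays brought them to 220. With 1 array per line this comparison has the largest standard errors of the 3.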

How the data were processed

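Expression was measured on 10 one-colour arrays of 6 groups. Per the file headers, the authors' scanner output gives an intensity per spot, background-subtracted and detrended within each array by Feature Extraction 10.7.3.1, with probe coordinates on mm9. The authors' deposited value table holds log2 values. Its columns share 1 median, its direction and log2 scale follow from the scanner values, and its exact scaling is unknown, so it served as an alternative. Limma is named, without a version, in the submitters' processing notes.

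Spots of a probe were averaged, log2 intensity minus the 75th percentile of each array was taken, and a probe was kept where some group had it well above background on all its arrays (33116 probes). The brightest probe stood for each of 23811 genes. Of 1813 called genes with several probes, 48 had a called probe of opposite direction. Symbols were updated through RefSeq (20869 of 22232 accessions matched). Limma 3.58.1 in R 4.3.3 was fitted to all 10 arrays with 1 term per group, leaving 4 residual degrees of freedom, with Benjamini-Hochberg adjustment over all genes, and was tested on simulated data.

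The naming rule took the 3 deleted genes and Prdm14, the 12 largest called rises and falls with standard symbols, and in each of 27 lists the 3 largest called rises and falls. Other genes, for example Zscan4c, Ttr, Gata6 and Piwil2, and all examples against Dnmt1_KO or Dnmt3b_KO, were chosen after their values were seen. The members and lists were chosen with earlier results of these data known. Alternatives varied background correction, scaling, probe filter, probe choice, variance model, slide, source of values and arrays fitted.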

Additional observations from a re-analysis of the deposited data

How the results depend on the processing

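Against J1, 6793 genes were called, 4815 to 5980 with 1 array left out in turn and 3742 without the 4 PRDM14-labelled arrays. Against Dnmt1_KO 2178 were called, 1359 to 1916 with 1 array left out (1359 without either PRDM14 array), 1099 with no filter on dim probes and 220 without the 4 PRDM14-labelled arrays. Against Dnmt3b_KO 4302 were called, 2507 to 4144 with 1 array left out, 2860 with no filter and 1928 without the 4 PRDM14-labelled arrays. Median scaling gave 1547 higher and 2654 lower against Dnmt3b_KO, and moved the median of all genes against J1 from -0.07 to -0.17. The median promoter CpG of genes higher by over 2-fold, 11, was 17 among genes above background on all 10 arrays. The shift of chromosome 8, 0.233, was 0.122 with normexp correction and 0.209 to 0.239 with a J1 array left out, 0.209 being also the value within the slide that holds TKO. Of 133 genes chosen by the naming rule, 92 kept call and direction in every fitted alternative that held them (18 for 98 of the 133, 17 for the others, which were not above background on all 10 arrays), 40 lost the call in at least 1 and 27 of those when an array was left out. Plagl1 lost its call with another probe (0.36). Zbtb4 turned to -0.37 with the mean of its probes, and Usp17la to -0.74 with quantile scaling and -0.66 among probes above background on all 10 arrays. The probe that stood for Usp17la was above background on 6 arrays, so the value of -0.66 came from its other probe, which was called lower. The cause of the other changes was not tested, apart from the fewer genes or arrays that a filter or an omission leaves. Among lists, rises ran from 6 to 15 for interferon genes, from 5 to 10 for MHC class I genes and from 2 to 7 for Hox genes. List medians moved as well. They ran from 0.40 to 2.98 for 2-cell, 1.20 to 3.56 for testis antigen and 0.84 to 2.54 for primitive endoderm genes. For piRNA genes the median ran from 0.45 to 1.22, and for Rhox genes from 0.68 to 2.00. With probes above background on all 10 arrays it was 0.09 for 11 piRNA and -1.01 for 6 Rhox genes. Signal near background limits the size of differences for dim genes. No paired analysis was possible because the TKO array carries no replicate number; the slide was fitted as a block in its place.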
